A study of Mus musculus with 31 samples.

Results

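The 3 masseter muscle (MM) libraries collected 5 days after complete Freund's adjuvant (5d post-CFA) were compared directly with the 3 collected after 1 day (1d post-CFA), to describe which transcripts had receded by 5d, which were still raised and which were raised only later. The 6 libraries were taken by their sample titles from the 31 bulk RNA-seq libraries of the study, 1 library per mouse. The mice were male wild-type C57BL/6J animals of 2 to 4 months, and both groups received the same injection into the left MM, CFA mixed in equal parts with PBS. CFA is an oil emulsion of killed mycobacteria that provokes strong local inflammation. The study took the earlier day for the onset of orofacial hypersensitivity and the later one for the time after it had resolved. The 3 vehicle-treated mice of the CFA experiment, injected with PBS, served as a reference level, and the day of their collection is not given in the sources used here. Whole muscle was dissected with tendon left out as far as possible, so each value is a sum over muscle fibers and every other cell of the sample, and fewer cells of a type and less RNA per cell cannot be told apart.

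Inflamed muscle is first entered by neutrophils, which follow CXC chemokines across the vessel wall, and then by monocytes, which follow CC chemokines and become macrophages. Interferons induce antiviral genes and genes that present antigen, among them those of MHC class I and class II. Injured fibers switch on immediate early genes, small heat shock proteins and the ubiquitin ligases of muscle atrophy, and the nerve branches in the tissue carry a myelin sheath made by Schwann cells.

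Each library held 24331632 to 26839661 reads counted on genes at 5d, 19282203 to 26112326 at 1d and 24035014 to 29076671 among the vehicle mice. Values per mouse are CPM, counts relative to the library total after edgeR's TMM scaling, in the order mouse 1, 2 and 3, and 10 counts equal 0.373 to 0.519 unscaled CPM in the 6 libraries. Fold changes are log2, 5d minus 1d, ± SE. Fiber genes were abundant in every library: 10 skeletal muscle markers summed to 86144, 134417 and 109141 CPM at 5d and to 110834, 126995 and 93916 CPM at 1d, with overlapping groups. Transcripts of a neighboring organ separated the days. The 32 salivary gland markers counted, of which 20 had enough counts to be tested, summed to 170106, 135608 and 150396 CPM at 5d. Their sums were 8928, 126 and 167 CPM at 1d and 196, 164 and 15699 CPM in the vehicle group. Bone markers summed to 87.8, 60.7 and 63.7 CPM at 5d, 35.3, 212 and 315 CPM at 1d and 61.4, 106 and 427 CPM in the vehicle group. Mouse 2 of the 1d group lay near the vehicle group for many genes that the other 1d mice had raised, and vehicle mouse 3 was the highest of its group in salivary gland, bone and neutrophil genes. Values without them, or without another library, are given beside the results that these move most.

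Of 14046 genes that reached 10 counts in 3 or more of the 6 libraries, 503 (3.58%) rose and 89 (0.634%) fell between 1d and 5d as differentially expressed genes (DEGs). A DEG had to change by more than 2-fold, to exceed an RPKM (reads per kilobase of exon, relative to the library total) of 1 in the mean of either group, and to have an adjusted p below 0.05 by edgeR's quasi-likelihood test with the Benjamini-Hochberg method. By the adjusted p alone, 681 genes (4.85%) were higher and 139 (0.990%) lower, and DESeq2 gave 949 (6.76%) and 535 (3.81%). At an unadjusted p under 0.05, 11.4% of genes were higher and 8.31% lower. In 15.3% and 10.5% every mouse at 5d lay above or below every mouse at 1d. Every 5d mouse lay above every vehicle mouse in 13.7% of 14026 genes, and every 1d mouse did in 2.99% of 13944. These shares are the background to the counts of list members below. They hold for 3 mice in each group. Groups with a mouse left out lie apart more easily, and no share over all genes was computed for them. Counts above vehicle without a mouse therefore stand without a background. Leaving out 1 library at a time gave 191 (without mouse 1 at 5d) to 577 DEGs higher (without mouse 2 at 1d) and 15 (without mouse 2 at 5d) to 399 lower (without mouse 2 at 1d). Mouse 2 at 1d was singled out for its low values in many genes that its group mates had raised. More and larger falls without it follow in part from that choice. The median fold change over all genes was 0.00. The p-values measure only the spread between these samples. Genes named outside the gene lists, the largest changes and the genes of the study were chosen after their values were seen: Kcnc4, Gm9766, Igfbp5, Tsc22d3, Pon1, Atrnl1, Rcn1, B2m, H2-D1, H2-K1, Ctsh, Sp100, Pla2g7, Cldn19, Ache and Agrn.

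The DEGs that rose were largely genes that accompany salivary gland transcripts. Among the 25 other libraries of the study, the level of each gene was correlated with the mean log2 level of the salivary gland markers, and 234 of the 503 (46.5%) had an r over 0.8, against 2.39% of the tested genes. Only 66 (13.1%) had an r under 0.5, against 91.5% of the tested genes. These correlations only describe libraries of the same muscle and study, and the part of salivary tissue in each change was not tested. When the 1194 genes with an r of at least 0.5 were left out of the fit and its adjustment, 3 genes remained higher and 5 lower among 12852. The unadjusted p-values of those genes had a median ratio of 0.993 to the earlier ones, and the small p-values of the salivary genes did not enter the adjustment. The 5 were Kcnc4, Cyr61, Retnlg, Gm9766 and S100a9, the 3 were Pon1, Atrnl1 and Rcn1, and the adjusted p of the 89 DEGs that fell reached at most 0.142 and that of the 66 at most 0.133. With DESeq2 on the same 12852 genes, 124 DEGs were higher and 216 lower. A fit over all 31 libraries with the salivary gland marker score as a covariate called 0 DEGs higher and 8 lower. All calls below are those over all tested genes unless stated otherwise. Of the 84 called genes named here, Fam179a alone kept its call with the covariate, 24 to 31 of 78 did without 1 of the 5d mice, 42 of 80 without mouse 3 at 1d and 73 and 74 of 80 without mouse 1 and mouse 2 at 1d.

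**Figure D1:**
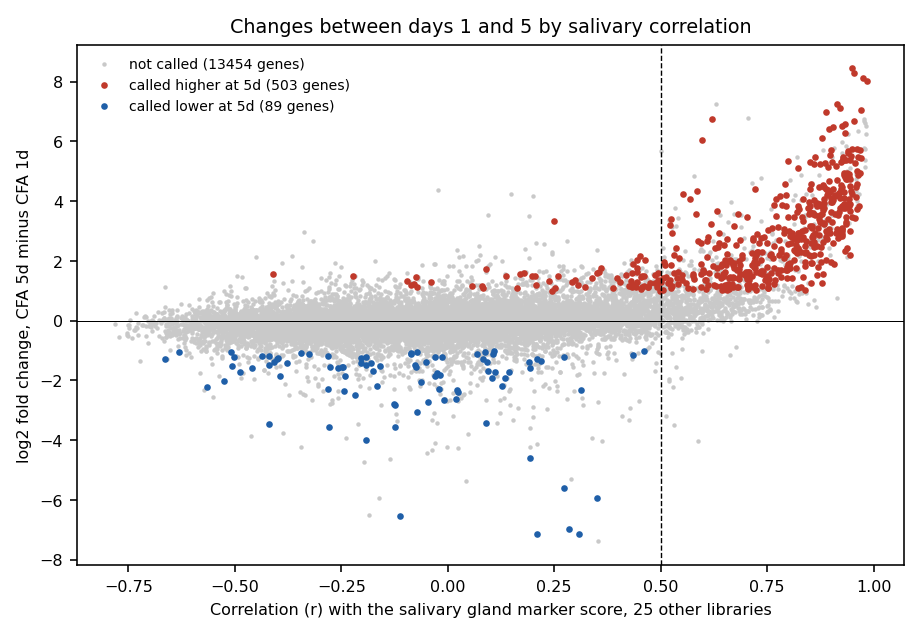
Each point is a tested gene, with its correlation with the salivary gland marker score over the 25 other libraries on the horizontal axis and its log2 fold change (5d minus 1d) on the vertical axis; red points are the 503 DEGs that rose, blue points the 89 that fell, and the dashed line marks an r of 0.5. The red points gather toward the right end, with 234 of them beyond an r of 0.8, and the blue points lie left of the dashed line.

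The 89 genes that fell had a median fold change of -1.58. In 86 of them the mean at 1d was above the mean of the vehicle group. In 21 every 1d mouse was above every vehicle mouse (background over all tested genes 2.99%). At 5d, 43 of the 89 overlapped the vehicle group, 46 lay entirely below it (background 5.87%) and 0 above it. Their median fold change against vehicle was 0.63 at 1d and -0.89 at 5d. The 89 were chosen for high values at 1d and low values at 5d in these same libraries. Their place above vehicle at 1d and below it at 5d follows in part from that choice. The genes of the background were not chosen in this way. The comparisons of both days with vehicle share the vehicle libraries, so these values stand side by side without a test between them. By the adjusted p alone, edgeR called 0 genes in either direction at 1d against vehicle, with 427 higher and 161 lower at an unadjusted p under 0.05, and 149 higher (1.06%) and 6 lower (0.0428%) at 5d. Without mouse 2 of the 1d group, the first comparison called 19 genes higher, among them Socs3, and 0 lower, with 904 and 723 at the unadjusted p, and without vehicle mouse 3 the second called 1631 and 531.

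Neutrophil genes showed the largest falls. S100a9 (chromosome 3, 90496554 to 90499643 in mm9), which with S100a8 forms the calprotectin of neutrophil cytosol, had 59.2, 27.4 and 189 CPM at 1d and 0.849, 0.477 and 0.589 CPM at 5d, a fold change of -7.14 ± 0.85 (edgeR's adjusted p = 0.0045). S100a8 had 29.9, 12.8 and 101 CPM at 1d and 0.51, 0.238 and 0.245 CPM at 5d, with -7.12 ± 0.93 (edgeR's adjusted p = 0.00621). Every mouse at 1d was above every mouse at 5d in both genes by more than an order of magnitude. Retnlg, a resistin-like protein of neutrophils and marrow, had 4.62, 2.05 and 7.01 CPM at 1d and 0.0425, 0 and 0.0491 CPM at 5d. As no 5d library held more than 3 counts of it, it was at least 32.8-fold higher at 1d (edgeR's adjusted p = 0.00388). Cd177, a neutrophil surface protein outside the list, was likewise at the floor of 3 counts at 5d and at least 29.5-fold higher at 1d, with 0.73, 1.24 and 10.4 CPM.

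All 14 tested neutrophil genes were lower at 5d, with a median fold change of -4.03 (-2.27 without mouse 3 at 1d), and 3 were DEGs (S100a8, S100a9 and Retnlg). A member near zero at 5d could reach 10 counts in 3 libraries only through the 1d mice, so this shared direction follows in part from that threshold. Between 5d and vehicle, 8 members could be tested. DESeq2 called 10 of the 14, and 8 had groups that did not overlap. Ngp, the neutrophilic granule protein, was second in abundance, and its fold change of -7.38 ± 2.13 (edgeR's adjusted p = 0.102) rested on mouse 2 and mouse 3 at 1d, and mouse 1 had 0.0695 CPM. The receptor Cxcr2, through which neutrophils read CXC chemokines, did not reach the RPKM threshold but passed edgeR's adjusted p (0.0172), with a level at 1d at least 18.8 times the floor of the 5d group. Camp and Ltf, granule proteins of which Ltf is also made by glands (r of 0.587 with the salivary gland markers), had groups that did not overlap and adjusted p-values of 0.0693 and 0.0637 (edgeR). At 1d the list stood at a median of 0.12 against vehicle with all libraries and of 5.34 over 13 genes without vehicle mouse 3. At 5d it stood at -4.44 with all libraries and at -0.037 over the 6 genes that could be tested without that mouse. Vehicle mouse 3 had 246 CPM of S100a9 where its group mates had 1.16 and 1.37 CPM.

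Genes of maturing marrow cells and bone were present in some of the same libraries. Mpo, a granule enzyme made by neutrophil precursors in marrow, had 0.139, 5.06 and 26.8 CPM at 1d, 0.127, 0.0477 and 0.0982 CPM at 5d and 0.0725, 0.0403 and 48.8 CPM in the vehicle group, and Elane, the elastase of the same precursors, had 0.0347, 1.89 and 10.8 CPM at 1d and 0.0363, 0 and 15.4 CPM in the vehicle group. Both were highest in mouse 3 at 1d and in vehicle mouse 3, the libraries with the highest bone marker sums. Mouse 1 at 1d, with 35.3 CPM of bone markers and Mpo at 0.139 CPM, still had 59.2 CPM of S100a9. Of the 89 DEGs that fell, 16 had an r over 0.5 with the bone markers in the 25 other libraries (background 4.10%), among them S100a9, S100a8, Retnlg, Nfe2, Tnn and Chi3l3. Nfe2 is a transcription factor of megakaryocytes and red cell precursors (-4.59 ± 0.83, edgeR's adjusted p = 0.0199), Tnn a tenascin of bone and tendon (-6.53 ± 1.45, edgeR's adjusted p = 0.0428) and Chi3l3 a chitinase-like protein of neutrophils and macrophages (-5.59 ± 0.97, edgeR's adjusted p = 0.0172). Tnn had 1.04, 26.2 and 54.7 CPM at 1d and 0.637, 0.0954 and 0.0982 CPM at 5d. The part of marrow and bone in these falls was not tested. Chi3l3 shares 17.9% of its 50-base windows with other genes and is uncertain for that reason.

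The CXC chemokines that attract neutrophils were all lower at 5d, 5 of 5, with a median fold change of -4.09 (-2.24 over 3 genes without mouse 3 and -2.47 over 3 without mouse 1 at 1d), and 0 were DEGs. Here too members near zero at 5d could be tested only through their counts at 1d, and 1 could be tested between 5d and vehicle. All 5 had an unadjusted p under 0.05, and DESeq2 called 1. Cxcl2 had 34.9, 0.482 and 7.34 CPM at 1d, 0.212, 0.381 and 1.57 CPM at 5d and 0, 0.0403 and 0 CPM in the vehicle group (-4.33 ± 1.40, edgeR's adjusted p = 0.138). Cxcl5 had 7.85, 0.161 and 8.66 CPM at 1d and 0.679, 0 and 0.0491 CPM at 5d (-4.42 ± 1.47, edgeR's adjusted p = 0.149). Cxcl3 had 6.67, 0.0401 and 2.23 CPM at 1d and 0.0425, 0 and 0.491 CPM at 5d, and Cxcl1 had 5.35, 0.522 and 2.02 CPM at 1d and 0.552, 0.62 and 0.785 CPM at 5d. Ppbp, the platelet member of the list, had 0.73, 1.4 and 18.6 CPM at 1d and was highest in vehicle mouse 3, with 30.3 CPM. Mouse 2 at 1d lay within the range of the 5d mice in Cxcl2, Cxcl5 and Cxcl3 and below it in Cxcl1, and the other two 1d mice lay above it. Without that mouse, 4 of the 5 were DEGs that fell (399 over all genes), and the median was -4.72, against -2.47 without mouse 1 and -2.24 without mouse 3.

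Stress response genes formed the next group of falls. Of 35 tested immediate early genes, which encode transcription factors and regulators switched on within minutes of a stimulus, 26 were lower at 5d, with a median fold change of -0.83. The 5 DEGs that fell were Junb, Egr1, Maff, Btg2 and Cyr61, and the single one that rose was Nr4a2, a nuclear receptor (1.89 ± 0.27, edgeR's adjusted p = 0.00935), which follows the salivary gland markers with an r of 0.65. In 16 of the 35 every 5d mouse was below every 1d mouse (background 10.5%). Junb, a subunit of the factor AP-1, had 256, 19.9 and 149.7 CPM at 1d, 14.3, 9.82 and 12.4 CPM at 5d and 37.3, 19.2 and 9.6 CPM in the vehicle group, with -3.55 ± 0.80 (edgeR's adjusted p = 0.0452). Mouse 2 at 1d, within the vehicle range, was the closest to the 5d mice. Cyr61 (chromosome 3, 145309935 to 145312949 in mm9), a matrix protein induced by mechanical load, was tighter, with 35.9, 28.3 and 40.5 CPM at 1d, 10.2, 9.39 and 9.82 CPM at 5d and 22.5, 21.3 and 18 CPM in the vehicle group, and -1.83 ± 0.18 (edgeR's adjusted p = 0.00275). It was above every vehicle mouse at 1d and below every vehicle mouse at 5d. Egr1, a zinc finger factor, had 36.1, 17.7 and 22.8 CPM at 1d and 11.1, 8.49 and 7.07 CPM at 5d. Btg2, an antiproliferative gene, had 102, 83.2 and 105 CPM at 1d and 39.6, 49.6 and 52.4 CPM at 5d, and Maff had 18.4, 6.22 and 8.45 CPM at 1d and 3.27, 2.96 and 2.5 CPM at 5d. In all 3 genes the 5d mice lay below every vehicle mouse. Jun, among the most abundant of the list, had a fold change of -0.83 ± 0.17, below 2-fold, with an adjusted p of 0.0291 (edgeR), while Nr4a1, the most abundant, was not called (0.70 ± 0.28, edgeR's adjusted p = 0.222). Fosl1, an AP-1 subunit that shares 64.4% of its 50-base windows with other genes, had -2.70 ± 1.38 (edgeR's adjusted p = 0.332). Without mouse 2 of the 1d group, 14 members were DEGs that fell (399 over all genes). The median was -0.88 without it and -0.69 without mouse 1 at 1d.

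Of 41 atrophy and stress genes 34 were lower at 5d, with a median fold change of -0.79 and 16 with groups that did not overlap. The 4 DEGs that fell were Fbxo32, Gadd45a, Cebpb and Cebpd. Fbxo32 encodes atrogin-1, a ubiquitin ligase of muscle wasting, and had 2669, 1113 and 561 CPM at 1d, 267, 184 and 174 CPM at 5d and 1907, 756 and 254 CPM in the vehicle group (-2.80 ± 0.57, edgeR's adjusted p = 0.0321). Gadd45a, a growth arrest gene, had 233, 23.5 and 79.9 CPM at 1d, 11.1, 10.8 and 9.13 CPM at 5d and 23.3, 21.9 and 10.8 CPM in the vehicle group (-3.45 ± 0.75, edgeR's adjusted p = 0.0398). Gadd45a at 1d was above every vehicle mouse, whereas Fbxo32 at 1d overlapped the vehicle group. Cebpb and Cebpd, transcription factors of the acute-phase response, fell by 1.49 ± 0.22 and 2.37 ± 0.31 on the log2 scale (edgeR's adjusted p = 0.00973 and 0.00595), and all their values at 5d were below all those at 1d. Trim63 (MuRF1), the most abundant of the list and the partner ligase of atrogin-1, had 3925, 589 and 796 CPM at 1d and 204, 235 and 187 CPM at 5d, with -3.10 ± 0.73 (edgeR's adjusted p = 0.0535). Sqstm1, the autophagy receptor p62, had -1.21 ± 0.43 (edgeR's adjusted p = 0.171) and shares 18.3% of its 50-base windows. Mt2, a metallothionein, had 691, 16.8 and 263 CPM at 1d and 19.8, 15.5 and 15.3 CPM at 5d (-4.27 ± 1.10, edgeR's adjusted p = 0.0717), with mouse 2 at 1d inside the 5d range. Without that mouse 15 members were DEGs that fell (399 over all genes). The list median was -1.06 without it and -0.50 without mouse 1 at 1d. Tsc22d3, the glucocorticoid-induced leucine zipper, was a further DEG that fell, with -1.11 ± 0.25 (edgeR's adjusted p = 0.0462).

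**Figure D2:**
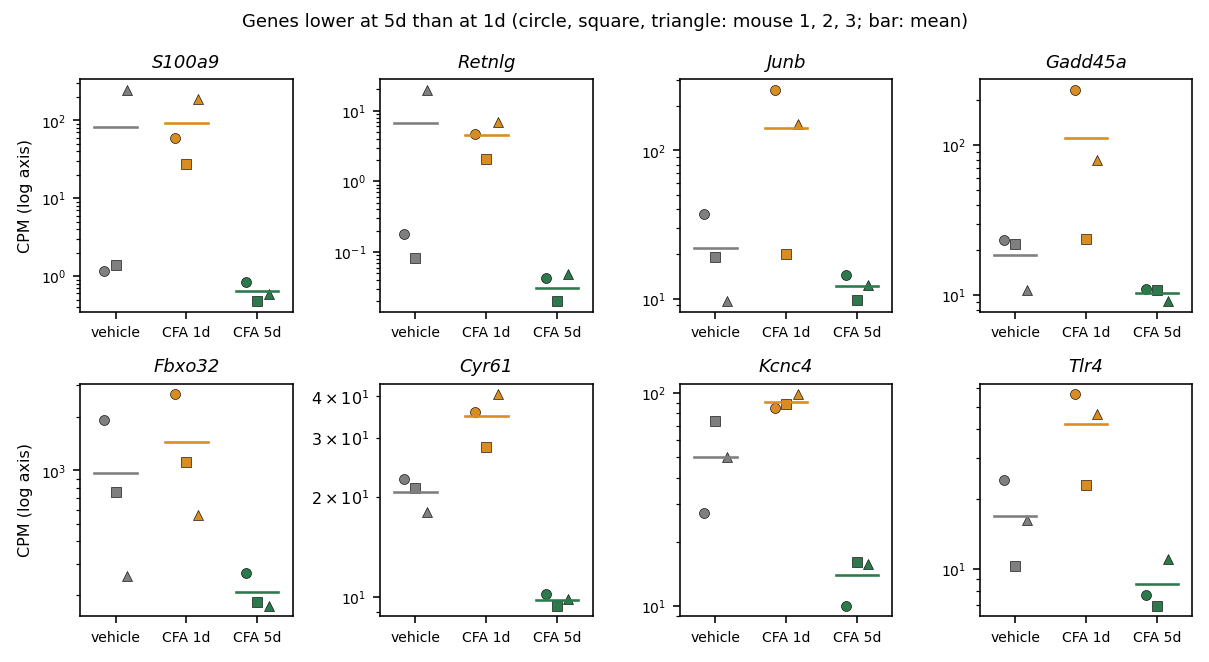
CPM of 8 genes on log axes in the vehicle group (grey), at 1d (orange) and at 5d post-CFA (green); circles, squares and triangles are mouse 1, 2 and 3, bars are group means, and values under 0.02 CPM are drawn at 0.02. All 3 mice at 5d lie below all 3 at 1d in every panel, while S100a9 is at 246 CPM in vehicle mouse 3 and Junb at 19.9 CPM in mouse 2 at 1d.

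Small heat shock proteins and regeneration genes followed the same direction. Of 21 heat shock and chaperone genes 20 were lower at 5d, with a median of -0.59, and 1 was a DEG: Hspb6, the small heat shock protein Hsp20, with 2322, 1978 and 2144 CPM at 1d and 769.6, 1045 and 1150.2 CPM at 5d (-1.13 ± 0.26, edgeR's adjusted p = 0.0469). Hspb7 had 4331, 637 and 1796 CPM at 1d and 262, 332 and 418 CPM at 5d, and Hspb1, with 36.7% of its windows shared, 736, 66.6 and 165 CPM at 1d and 20.7, 33.7 and 37.9 CPM at 5d. Their groups did not overlap, and their adjusted p-values were 0.0548 and 0.0622 (edgeR). Of 31 myogenic and regeneration genes 26 were lower, with a median of -0.60, 8 with groups apart and 2 DEGs. These were Musk, the receptor kinase that organizes the neuromuscular junction, with 40.5, 15.1 and 20.3 CPM at 1d and 7.01, 6.96 and 7.31 CPM at 5d (-1.84 ± 0.36, edgeR's adjusted p = 0.028), and Csrp3, a Z-disc protein of stretched fibers, with 619.9, 106 and 364 CPM at 1d and 38.5, 24 and 67.8 CPM at 5d (-3.07 ± 0.67, edgeR's adjusted p = 0.0403). Musk at 5d was below every vehicle mouse, and Csrp3 overlapped the vehicle group. Mustn1 had 4079, 66.2 and 837 CPM at 1d and 48.8, 52.9 and 101 CPM at 5d, and Ankrd1, a titin-binding stress protein, 119, 0.482 and 29 CPM at 1d and 0.467, 0.286 and 0.883 CPM at 5d. Neither passed (edgeR's adjusted p = 0.0897 and 0.0706), and mouse 2 at 1d lay within the 5d range in both. The most abundant member, Des (desmin), had -0.44 ± 0.35 (edgeR's adjusted p = 0.542).

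Sarcomere genes as a whole had a median of -0.12 over 54 members, with 3 DEGs that fell. These were Lmod2, an actin nucleator of the thin filament (-1.58 ± 0.22, edgeR's adjusted p = 0.00829), Pdlim3, a Z-disc protein (-2.02 ± 0.46, edgeR's adjusted p = 0.0482), and Tnni1, the slow troponin I, which had at most 2.69 CPM. Lmod2 had 364, 477 and 518 CPM at 1d, 171, 155 and 127 CPM at 5d and 313, 356 and 362 CPM in the vehicle group, so that it was above the vehicle mice at 1d and below them at 5d. The abundant members Acta1 and Myh4 were not called (-0.51 ± 0.41, edgeR's adjusted p = 0.542 and 0.63 ± 0.41, edgeR's adjusted p = 0.454), nor were Flnc, filamin C, and Myl3, a slow light chain, which moved furthest (-2.46 ± 0.65, edgeR's adjusted p = 0.0769 and -2.35 ± 1.11, edgeR's adjusted p = 0.293).

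Kcnc4, a voltage-gated potassium channel, had the smallest p of the 89 genes that fell. It lies on chromosome 3, 107241221 to 107261816 (mm9) and had 84.7, 89 and 98.3 CPM at 1d, 10.0, 16.1 and 15.7 CPM at 5d and 27.2, 73.4 and 50.0 CPM in the vehicle group, with -2.71 ± 0.20 (edgeR's adjusted p = 0.00153). The 1d mice were above and the 5d mice below every vehicle mouse. Klhl34, Fam169b and Fam179a showed the same order at lower levels, from 3.45 to 9.49, 1.52 to 5.65 and 12.2 to 74.4 CPM at 1d and at most 0.51, 0.491 and 4.53 CPM at 5d. Their fold changes were -3.98 ± 0.49 (edgeR's adjusted p = 0.00481), -3.55 ± 0.59 (edgeR's adjusted p = 0.0145) and -3.43 ± 0.61 (edgeR's adjusted p = 0.0183), and each was above every vehicle mouse at 1d and below every vehicle mouse at 5d. Igfbp5, which binds insulin-like growth factors, had the same order at a higher level, with 1668, 1035 and 1183 CPM at 1d and 403, 528 and 552 CPM at 5d (-1.40 ± 0.27, edgeR's adjusted p = 0.0275). Gm9766, a predicted gene, had 65.9, 45.1 and 44 CPM at 1d, 14.6, 14.6 and 11.8 CPM at 5d and 56.9, 24.2 and 23.3 CPM in the vehicle group (-1.92 ± 0.21, edgeR's adjusted p = 0.00387), overlapping the vehicle group at 1d and below it at 5d.

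The study names 39 genes as raised at 1d, a choice made on these libraries and so no independent evidence of their direction, and 37 of them could be tested between the days. Of these, 31 were lower at 5d and 6 higher, with a median fold change of -1.47 (-0.78 over 33 genes without mouse 1 at 1d). Only Tlr4 and Selp were DEGs, 13 of the 31 had an unadjusted p under 0.05, and DESeq2 called 8. Tlr4, the receptor for bacterial lipopolysaccharide, had 56.5, 22.9 and 46.7 CPM at 1d, 7.73, 6.91 and 11 CPM at 5d and 24.1, 10.2 and 16.2 CPM in the vehicle group (-2.30 ± 0.36, edgeR's adjusted p = 0.0118). Selp, the P-selectin by which leukocytes roll on endothelium, had 30.5, 9.95 and 29.2 CPM at 1d, 5.86, 5.24 and 8.2 CPM at 5d and 4.53, 9.8 and 4.73 CPM in the vehicle group (-1.86 ± 0.43, edgeR's adjusted p = 0.0481). In both genes all mice at 1d lay above all mice at 5d, and the 5d mice overlapped the vehicle group. The alarmin Il33 was the only other gene of the 37 with groups apart. It had 51.5, 26.4 and 29 CPM at 1d and 21, 12.2 and 16 CPM at 5d (-1.12 ± 0.32, edgeR's adjusted p = 0.103). The 2 genes without enough counts were Il6 and Csf3. Il6 had 4.13, 0.161 and 1.9 CPM at 1d and 0.34, 0.191 and 0.0982 CPM at 5d. Csf3, the granulocyte growth factor, had 2.15, 0.0401 and 1.28 CPM at 1d and 0 CPM in every 5d mouse. Its mean at 1d was at least 8.31-fold above the floor of 3 counts at 5d, and this rested on mouse 1 and mouse 3.

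Acute-phase genes were lower at 5d in 12 of 14, with a median of -1.15 and 0 DEGs. An unadjusted p under 0.05 was reached by 9, all lower, and DESeq2 called 5. Saa1 had 28.5, 0.361 and 6.35 CPM at 1d and 0.0425, 0.0477 and 0.785 CPM at 5d, with -5.36 ± 1.59 (edgeR's adjusted p = 0.11), and shares 10.8% of its windows. Saa3, the serum amyloid A of macrophages, had 135, 0.441 and 25 CPM at 1d, 1.06, 3.96 and 3.83 CPM at 5d and 0.109, 0.0807 and 0.0336 CPM in the vehicle group (-4.21 ± 1.51, edgeR's adjusted p = 0.176). Saa3 therefore lay lower at 5d than in mice 1 and 3 at 1d, higher than in mouse 2, and above every vehicle mouse. The most abundant members, C3 and Steap4, had -1.25 ± 0.52 (edgeR's adjusted p = 0.244) and -0.91 ± 0.23 (edgeR's adjusted p = 0.072). Without mouse 2 of the 1d group, 8 of the 14 were DEGs that fell (399 over all genes). The median was -1.47 without that mouse and -0.69 without mouse 1 at 1d.

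Of 13 inflammatory cytokines 10 were lower at 5d, with a median of -0.45, and 0 were DEGs, with 1 higher and 3 lower at an unadjusted p under 0.05 and 3 lower by DESeq2. Il1b, the cytokine of activated monocytes, had 44.4, 0.803 and 17.2 CPM at 1d, 0.977, 0.572 and 2.6 CPM at 5d and 0.29, 0.323 and 1.54 CPM in the vehicle group (-3.92 ± 1.23, edgeR's adjusted p = 0.128). Osm, oncostatin M, had 4.45, 0.0803 and 3.88 CPM at 1d and 0.467, 0.0477 and 0.442 CPM at 5d, and for Tnf the values were 2.26, 0.281 and 3.22 CPM at 1d and 0.552, 0.572 and 2.5 CPM at 5d. In all 3 genes mouse 2 at 1d was no higher than the middle 5d mouse. The most abundant members, Csf1 and Tgfb3, had fold changes of -0.38 ± 0.19 and -0.02 ± 0.18 and overlapping groups. Without mouse 2, 3 of the 13 were DEGs that fell (399 over all genes). The median was -0.72 without that mouse and -0.18 without mouse 3 at 1d. Genes of the NF-kB pathway and its feedback were lower in 24 of 29, with a median of -0.46 and 0 DEGs, 7 at an unadjusted p under 0.05 and 2 by DESeq2. Socs3, an inhibitor of cytokine signaling, had 119, 11.6 and 140.1 CPM at 1d and 7.35, 16.1 and 15.4 CPM at 5d (-2.81 ± 0.80, edgeR's adjusted p = 0.0984). Il1rn, the antagonist of the interleukin 1 receptor, had 27.4, 0.482 and 42.1 CPM at 1d and 0.892, 3.19 and 12.4 CPM at 5d. The abundant members Tnfaip2 and Sod2 had 0.70 ± 0.45 (edgeR's adjusted p = 0.44) and 0.19 ± 0.22 (edgeR's adjusted p = 0.696), and Nfkbid -1.10 ± 0.64 (edgeR's adjusted p = 0.395).

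Most CC chemokines, which attract monocytes, lay above the vehicle group at 5d, and none passed the test between the days. Of 14 tested, 11 were lower at 5d, with a median of -1.36 (-0.66 without mouse 3 at 1d) and 0 DEGs, 3 at an unadjusted p under 0.05 in either direction and 0 by DESeq2. In 10 of the 14 every 5d mouse lay above every vehicle mouse (background 13.7%), and in 5 of 11 every 1d mouse did (background 2.99%). Ccl2, the main ligand of the receptor Ccr2, had 13.8, 1.12 and 30.0 CPM at 1d, 3.74, 1.76 and 4.96 CPM at 5d and 0.0725, 0.766 and 1.24 CPM in the vehicle group (-2.09 ± 0.95, edgeR's adjusted p = 0.274). Ccl7 had 23.7, 1.57 and 42.9 CPM at 1d, 3.52, 2.77 and 8.88 CPM at 5d and 0.0725, 0.282 and 0.604 CPM with vehicle (-2.17 ± 0.98, edgeR's adjusted p = 0.273). In both genes 2 mice at 1d were higher than every 5d mouse and mouse 2 was lower. Ccl6 and Ccl9, the most abundant, had -1.48 ± 0.68 (edgeR's adjusted p = 0.281) and -1.47 ± 0.67 (edgeR's adjusted p = 0.275). Ccl3, Ccl4 and Ccl12 had fold changes of -2.02 ± 0.99, -1.80 ± 1.0 and -1.25 ± 0.86. Ccl8, by contrast, stood at 19.2, 4.09 and 9.73 CPM at 1d, 8.28, 8.06 and 17.7 CPM at 5d and 0.471, 1.25 and 2.08 CPM in the vehicle group, with 0.03 ± 0.56 between the days. Without mouse 2 of the 1d group 6 of the 14 were DEGs that fell (399 over all genes) and the median was -1.90, against -0.66 without mouse 3.

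**Figure D3:**
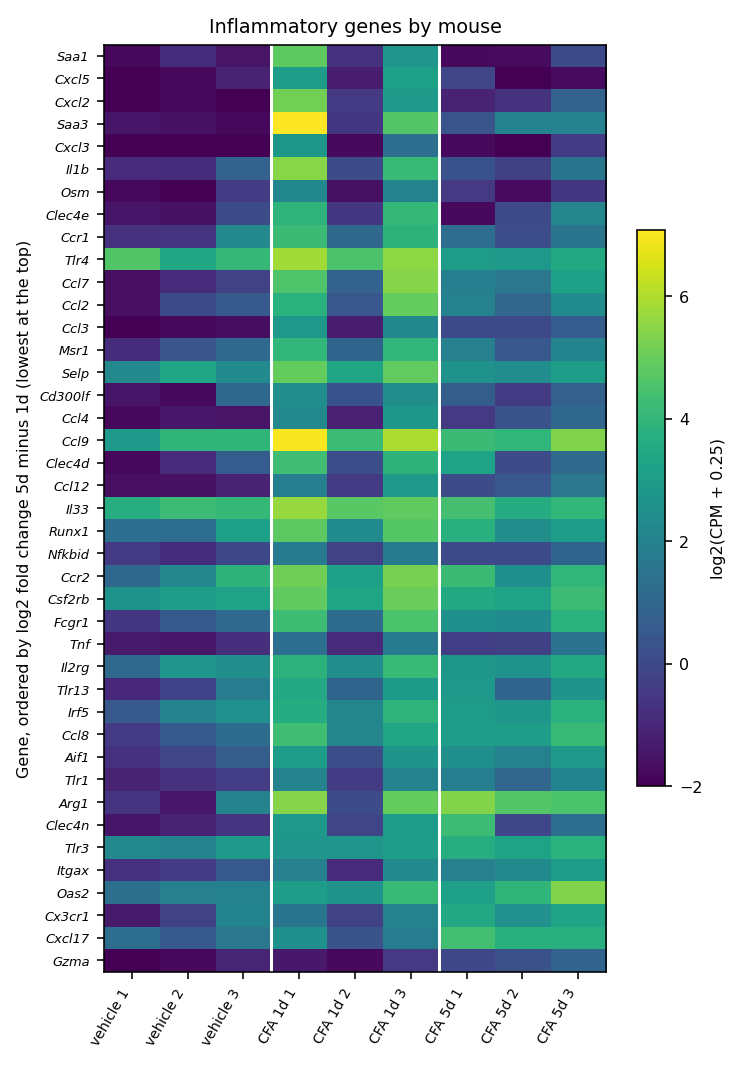
Color gives log2(CPM + 0.25) of 41 inflammatory genes (rows, ordered by log2 fold change 5d minus 1d, lowest at the top) in the 9 mice of the vehicle, 1d and 5d groups (columns, parted by white lines). Mouse 2 at 1d resembles the vehicle columns, as for Il1b with 0.803 CPM against 44.4 and 17.2 CPM in its group mates, and the lower rows, from Ccl8 to Gzma, are brighter at 5d than in the vehicle group.

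Monocyte and macrophage transcripts were still present at 5d. Of 30 monocyte and inflammatory macrophage genes 25 were lower at 5d than at 1d, with a median of -0.51, and 2 were DEGs that fell, Tlr4 and Chi3l3. Of 29 tested at 5d, 11 lay above every vehicle mouse (background 13.7%), and without vehicle mouse 3, 23 of 28 did. Of the 30 members tested at 1d, 3 did (background 2.99%), and 26 without mouse 2 of that group. The 2 counts with a mouse left out have no share over all genes beside them, so they do not single out these members. Ccr2, the monocyte chemokine receptor, had 34.6, 8.87 and 36.7 CPM at 1d, 18, 5.53 and 15.6 CPM at 5d and 1.85, 4.36 and 14.4 CPM in the vehicle group. Ccr1, a receptor of Ccl3, had 17.8, 1.81 and 14.2 CPM at 1d, 2.12, 0.858 and 2.55 CPM at 5d and 0.363, 0.403 and 4.6 CPM with vehicle. The 1d and 5d groups overlapped in both receptors. Fcgr1, an antibody receptor, and Msr1, a scavenger receptor, had fold changes of -0.84 ± 0.77 and -1.90 ± 0.81, and the lectins Clec4e, Clec4d and Clec4n had -2.69 ± 1.38, -1.47 ± 1.12 and 0.52 ± 1.17. Aif1, the macrophage protein Iba1, had 7.89, 0.883 and 6.27 CPM at 1d, 5.44, 3.72 and 7.26 CPM at 5d and 0.363, 0.686 and 1.34 CPM in the vehicle group, a fold change of 0.12 ± 0.67. Arg1, the arginase of repair macrophages, had 42.9, 0.803 and 30.2 CPM at 1d, 42.2, 25.1 and 22.8 CPM at 5d and 0.399, 0.121 and 3.96 CPM with vehicle, with 0.29 ± 0.97. Both lay above every vehicle mouse at 5d and in 2 of the 3 mice at 1d. The most abundant members, Fn1 and Ly6c1, had -0.04 ± 0.61 and -0.38 ± 0.22, and 31.9% of the windows of Ly6c1 are shared.

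The other genes that the study names at 1d were not called between the days. Tlr1, Tlr13, Irf5, Cd300lf, Il2rg, Csf2rb, Runx1 and Oas2 had fold changes of 0.14 ± 0.68, -0.40 ± 0.72, -0.13 ± 0.47, -1.81 ± 0.69, -0.62 ± 0.44, -0.86 ± 0.45, -1.11 ± 0.61 and 1.03 ± 0.61, all with overlapping groups. Over the whole of the 37 the median against vehicle was 2.95 at 1d and 2.27 at 5d (3.82 and 3.15 without vehicle mouse 3), and 19 lay above every vehicle mouse at 5d. The reads of Tlr1, Il2rg and Csf2rb are uncertain, since 17.4%, 40.8% and 17.5% of their windows are shared with other genes.

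Broader macrophage genes were higher at 5d in 17 of 28, with a median of 0.26, 0 DEGs that rose and 1 that fell. This was Lyve1, a hyaluronan receptor of resident macrophages and lymphatic vessels, with 11.8, 15.1 and 12.7 CPM at 1d and 5.27, 4.39 and 7.26 CPM at 5d (-1.23 ± 0.25, edgeR's adjusted p = 0.0291). Lyz2, the most abundant, had -0.21 ± 0.44 (edgeR's adjusted p = 0.841) and shares 15.4% of its windows. Cx3cr1, the fractalkine receptor, had 10.8, 5.72 and 9.52 CPM at 5d, 2.61, 0.602 and 3.92 CPM at 1d and 0.145, 0.605 and 3.99 CPM in the vehicle group (1.87 ± 0.60, edgeR's adjusted p = 0.133). For Ms4a7 the values were 9.77, 5.96 and 11.2 CPM at 5d, 5.35, 0.562 and 3.71 CPM at 1d and 0.109, 0.847 and 2.25 CPM with vehicle (1.48 ± 0.67, edgeR's adjusted p = 0.277). In both genes every 5d mouse was above every 1d mouse and every vehicle mouse.

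Cx3cr1 is one of 8 genes that the study names at 5d, a choice made on these libraries too. None was a DEG between the days, 6 were higher and 2 lower (Saa3 and Ccl3), with a median of 0.82, and all 8 lay above every vehicle mouse at 5d. Besides Cx3cr1, every 5d mouse was above every 1d mouse in Cxcl17, a chemokine of mucosal and glandular tissue that follows the salivary gland markers with an r of 0.899 (2.20 ± 0.55, edgeR's adjusted p = 0.0664), in Gzma (2.36 ± 0.72, edgeR's adjusted p = 0.118) and in Tlr3, a sensor of double-stranded RNA (0.75 ± 0.23, edgeR's adjusted p = 0.118). Itgax, the integrin CD11c, had 3.65, 4.82 and 7.61 CPM at 5d and 3.61, 0.281 and 4.7 CPM at 1d and overlapped.

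Interferon-stimulated genes were higher at 5d in 35 of 42, with a median of 0.57, and 0 were DEGs. The median was 0.13 without mouse 3 and 0.88 without mouse 1 at 5d. It was 0.32 without mouse 1, 0.34 without mouse 2 and 1.33 without mouse 3 at 1d. An unadjusted p under 0.05 was reached by 7, DESeq2 called 2, and no member had groups apart. Irf7, the factor that amplifies interferon production, had 27.9, 154 and 241 CPM at 5d, 15.5, 11.2 and 47.3 CPM at 1d and 8.08, 14.8 and 7.12 CPM in the vehicle group (2.50 ± 0.81, edgeR's adjusted p = 0.138). Ifi44 had 5.18, 13 and 33.8 CPM at 5d, 1.46, 2.81 and 9.73 CPM at 1d and 1.74, 1.73 and 2.89 CPM with vehicle (1.89 ± 0.83, edgeR's adjusted p = 0.263). In both genes mouse 3 at 5d was the highest and mouse 1 the lowest of its group, and mouse 3 was also the highest at 1d. The abundant GTPases Irgm1 and Irgm2 had 0.87 ± 0.49 (edgeR's adjusted p = 0.374) and -0.80 ± 0.49 (edgeR's adjusted p = 0.413). Against the vehicle group, 31 of 42 lay above every vehicle mouse at 5d (background 13.7%), and 10 of 41 at 1d (background 2.99%). Without mouse 2 at 1d, 22 did, a count for which no background was computed. Their median fold change against vehicle was 1.67 at 5d and 0.90 at 1d. Sp100, an interferon-induced nuclear body protein outside the list, did rise, with 39.2, 48.7 and 64.6 CPM at 5d and 17.7, 20.3 and 25.5 CPM at 1d (1.26 ± 0.22, edgeR's adjusted p = 0.018).

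Genes of antigen presentation were among those that rose. MHC class II molecules show peptides to CD4+ T cells. H2-Aa encodes a class II alpha chain (I-A), H2-Eb1 a class II beta chain (I-E) and B2m the light chain of every MHC class I molecule. Their promoters are shown because class II genes share the Y box (CTGATTGG), next to the cAMP response element (TGACGTCA) in some of them, and interferon-responsive genes often carry an element of 2 GAAA runs with 2 bases between them. The sequences are RefSeq's on GRCm38.p6, 250 bases before to 50 bases after the start of the gene, 5′ to 3′ on the strand of the gene, with matches to these motifs in capitals. The H2-Aa window lies at chr17:34287774-34288073 on the minus strand, H2-Eb1 at chr17:34305617-34305916 on the plus strand and B2m at chr2:122147437-122147736 on the plus strand.
H2-Aa: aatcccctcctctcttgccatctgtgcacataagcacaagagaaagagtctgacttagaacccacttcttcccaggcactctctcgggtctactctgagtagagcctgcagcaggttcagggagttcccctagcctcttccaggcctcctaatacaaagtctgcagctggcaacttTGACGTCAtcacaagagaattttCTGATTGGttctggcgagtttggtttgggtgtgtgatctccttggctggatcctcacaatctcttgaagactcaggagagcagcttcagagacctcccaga
H2-Eb1: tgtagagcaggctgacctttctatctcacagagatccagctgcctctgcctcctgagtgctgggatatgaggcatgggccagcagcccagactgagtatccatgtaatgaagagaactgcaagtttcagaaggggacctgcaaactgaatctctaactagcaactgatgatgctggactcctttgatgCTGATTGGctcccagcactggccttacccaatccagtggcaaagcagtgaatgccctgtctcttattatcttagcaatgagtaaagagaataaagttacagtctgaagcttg
B2m: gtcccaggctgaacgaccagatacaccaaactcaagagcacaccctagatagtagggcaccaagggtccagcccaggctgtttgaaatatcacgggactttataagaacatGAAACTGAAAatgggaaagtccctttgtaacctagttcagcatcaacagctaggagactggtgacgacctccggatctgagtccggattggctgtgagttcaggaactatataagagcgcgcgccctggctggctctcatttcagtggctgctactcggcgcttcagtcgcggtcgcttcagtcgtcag

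Both strands were searched. CTGATTGG began 51 bases before the start in H2-Aa and 62 bases before it in H2-Eb1, TGACGTCA 74 bases before it in H2-Aa, and the interferon element 139 bases before it in B2m. Over 27025 mouse promoters of this length, CTGATTGG occurred in 4.31%, TGACGTCA in 1.88% and the interferon element in 3.49%. Of the 16 members of the class II and dendritic cell list with a promoter in the table, 3 (18.8%) held CTGATTGG, and of 30 interferon-stimulated genes 19 (63.3%) held the interferon element. A match describes the letters in the window and no more.

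H2-Aa had 113, 103 and 154 CPM at 5d, 57.7, 34.8 and 55.4 CPM at 1d and 16, 52.4 and 70.3 CPM in the vehicle group, with 1.32 ± 0.26 (edgeR's adjusted p = 0.0267). H2-Eb1 had 86, 81.4 and 115 CPM at 5d, 49.3, 30.1 and 49.3 CPM at 1d and 14.6, 40.2 and 52.8 CPM with vehicle, with 1.13 ± 0.25 (edgeR's adjusted p = 0.0399). In both genes the 5d mice were above all mice of the other groups, and the 1d mice lay inside the vehicle range. Proteins were not measured here, so the RNA of H2-Eb1 does not show that I-E was present. H2-Ab1 and Cd74, the beta chain of I-A and the invariant chain, were also highest in the 5d mice without passing edgeR's test (0.93 ± 0.29, edgeR's adjusted p = 0.126 and 0.95 ± 0.28, edgeR's adjusted p = 0.114), while DESeq2 gave adjusted p-values of 0.0468 and 0.0289. Of 22 class II and dendritic cell genes, 16 were higher at 5d, with a median of 0.53 (0.20 without mouse 2 of the 1d group). Groups were apart in 4 of the 22, near the background of 15.3%. Above every vehicle mouse lay 11 of 21 at 5d (background 13.7%) and 0 of 20 at 1d (background 2.99%). Without mouse 2 at 1d, 9 of 20 did, again without a background. Clec9a, a receptor of cross-presenting dendritic cells, had 1.35 ± 0.70 (edgeR's adjusted p = 0.344).

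B2m had 524, 693 and 1211 CPM at 5d, 208, 273 and 343 CPM at 1d and 183, 364 and 268 CPM in the vehicle group, with 1.56 ± 0.35 (edgeR's adjusted p = 0.046). Its 1d mice lay within the range of the vehicle mice and its 5d mice above both. The class I heavy chains H2-D1 and H2-K1 rose as well, with 1.08 ± 0.21 (edgeR's adjusted p = 0.0283) and 2.09 ± 0.32 (edgeR's adjusted p = 0.0107). They correlate with the salivary gland markers at an r of 0.525 and 0.721, against 0.17 for B2m, and 12.8% of the 50-base windows of H2-D1 are shared with other genes. Ctsh, a lysosomal cysteine protease, had 83.2, 66 and 96.9 CPM at 5d and 39.2, 20.4 and 27.9 CPM at 1d (1.49 ± 0.27, edgeR's adjusted p = 0.0209).

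Apoe, the lipoprotein made by lipid-laden macrophages among other cells, had 459, 238 and 267 CPM at 5d, 102, 112 and 110.4 CPM at 1d and 142, 202 and 168 CPM in the vehicle group (1.57 ± 0.29, edgeR's adjusted p = 0.0209). It lay below every vehicle mouse at 1d and above every vehicle mouse at 5d. In the list of 25 lipid-handling macrophage genes the median was -0.05, with 2 DEGs that rose, Apoe and the tetraspanin Cd9, which follows the salivary gland markers (r of 0.854), and 1 that fell, Spp1. Spp1, the secreted phosphoprotein osteopontin, had 149.8, 63.4 and 196 CPM at 1d, 36.3, 17.5 and 28.9 CPM at 5d and 10.7, 21 and 150.0 CPM in the vehicle group (-2.30 ± 0.45, edgeR's adjusted p = 0.0277). The most abundant members, the protease Ctsd and the lipase Lpl, had -0.51 ± 0.37 and -0.12 ± 0.45. Mmp12, the macrophage elastase, had 2.34, 3.77 and 13.9 CPM at 5d and 1.22, 0.321 and 0.99 CPM at 1d (2.96 ± 0.77, edgeR's adjusted p = 0.0748). Pla2g7, a plasma phospholipase made by macrophages, also rose (1.59 ± 0.30, edgeR's adjusted p = 0.0246).

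Complement genes were divided, with 10 higher and 9 lower of 19, of which 2 were DEGs that rose and 1 a DEG that fell. C2 and C4b, which form the classical pathway's convertase, rose with 1.16 ± 0.26 (edgeR's adjusted p = 0.0427) and 1.36 ± 0.20 (edgeR's adjusted p = 0.0106). C4b had 45.2, 36 and 39.2 CPM at 5d, 18.4, 12.2 and 16.2 CPM at 1d and 9.57, 14.1 and 17.6 CPM in the vehicle group, and its r with the salivary gland markers is 0.607. C2 shares 49.1% of its windows with other genes. C3 and Serping1, the most abundant, were not called, and Itgam, the integrin of the complement receptor CR3, had -1.37 ± 0.65 (edgeR's adjusted p = 0.292).

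Genes of cytotoxic and NK cells were higher at 5d in 9 of 10, at low levels, with a median of 1.47 (2.42 without mouse 3 at 1d), 4 with groups apart and 0 DEGs, 3 higher at an unadjusted p under 0.05 and 1 by DESeq2. Of the 21 counted, 10 could be tested between the days and 5 between 1d and vehicle. A member near zero at 1d could reach 10 counts in 3 libraries only through the 5d mice. The shared direction follows in part from that threshold. Ncr1, the NK cell receptor NKp46, missed the RPKM threshold. It had 0.51, 0.668 and 0.736 CPM at 5d, at least 5.49-fold above the floor of the 1d group (edgeR's adjusted p = 0.0121). Gzma, a granzyme, had 0.722, 0.954 and 1.62 CPM at 5d, 0.139, 0.0401 and 0.454 CPM at 1d and 0, 0.0403 and 0.235 CPM in the vehicle group. Ccl5 had 1.95, 1.48 and 3.19 CPM at 5d, 0.208, 0 and 1.44 CPM at 1d and 0, 0.0403 and 0.671 CPM with vehicle, and Klrk1 0.81 ± 0.68 (edgeR's adjusted p = 0.563). Of the 10, 7 lay above every vehicle mouse at 5d (background 13.7%).

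Pain mediators and neurotrophic factors had a median of -0.45 over 30 genes (-0.15 without mouse 2 at 5d), with 19 lower. There were 2 DEGs, both of which rose. P2rx7, the ATP-gated channel that triggers release of interleukin 1, had 18, 12 and 14.6 CPM at 5d, 7.78, 5.58 and 6.31 CPM at 1d and 3.88, 6.29 and 9.4 CPM in the vehicle group (1.18 ± 0.24, edgeR's adjusted p = 0.0326). P2rx4, a related channel and the most abundant of the list, had 71.8, 60.7 and 59.8 CPM at 5d, 25.8, 8.59 and 12.9 CPM at 1d and 6.96, 10.4 and 26 CPM with vehicle (2.02 ± 0.38, edgeR's adjusted p = 0.0247). Both were above every mouse of the other groups at 5d, and their r with the salivary gland markers is 0.438 and 0.651. Ptgs2, the inducible cyclooxygenase that makes prostaglandins, had 6.08, 0.482 and 2.39 CPM at 1d and 1.02, 0.238 and 0.294 CPM at 5d (-2.50 ± 0.94, edgeR's adjusted p = 0.196), and the endothelin receptor Ednrb -0.59 ± 0.24 (edgeR's adjusted p = 0.225).

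**Figure D4:**
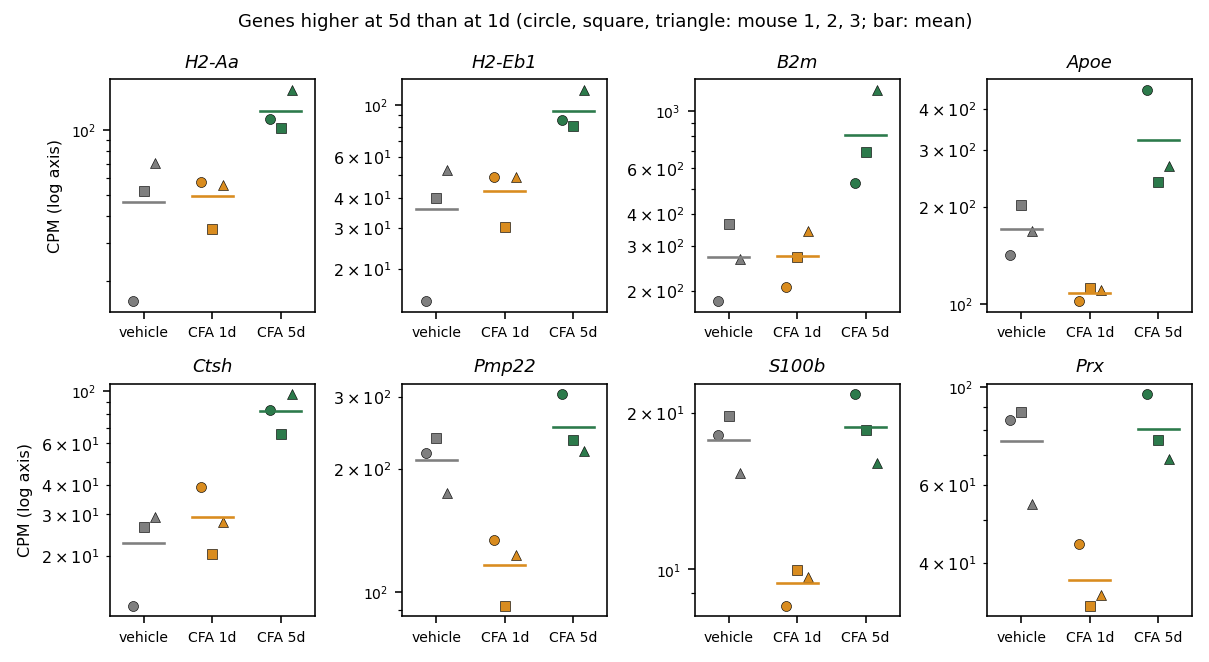
CPM of 8 genes on log axes in the vehicle group (grey), at 1d (orange) and at 5d post-CFA (green); circles, squares and triangles are mouse 1, 2 and 3 and bars are group means. All 3 mice at 5d lie above all 3 at 1d in every panel; for H2-Aa, H2-Eb1, B2m, Apoe and Ctsh they also lie above the vehicle group, and for Pmp22, S100b and Prx they overlap it while the 1d mice lie below it.

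Myelin genes were lower at 1d than at 5d. All 12 tested Schwann cell markers were higher at 5d, with a median of 1.02, and 7 were DEGs that rose, among them Pmp22, Mbp, Mal, Prx, Sox10 and S100b. Pmp22 (chromosome 11, 62942484 to 62973049 in mm9), a membrane protein of peripheral myelin, had 305, 235 and 222 CPM at 5d, 134, 92.3 and 123 CPM at 1d and 219, 238 and 175 CPM with vehicle (1.13 ± 0.23, edgeR's adjusted p = 0.0309). S100b, a calcium-binding protein of Schwann cells, had 21.7, 18.6 and 16 CPM at 5d, 8.51, 9.99 and 9.69 CPM at 1d and 18.2, 19.8 and 15.4 CPM with vehicle (1.0 ± 0.19, edgeR's adjusted p = 0.0225). In both genes the 1d mice were below every vehicle mouse and the 5d mice overlapped the vehicle group. Prx and Mbp showed the same order, with 1.13 ± 0.21 (edgeR's adjusted p = 0.021) and 1.03 ± 0.19 (edgeR's adjusted p = 0.0226), and so did Cldn19, a claudin of the myelin sheath outside the list (1.14 ± 0.19, edgeR's adjusted p = 0.0143). Against vehicle, the list had a median of -0.76 at 1d, with 9 of 12 below every vehicle mouse (background 3.16%), and of 0.20 at 5d. Of the 12, 3 follow the salivary gland markers, among them Sox10, which glands also express (r of 0.935) and which alone reached 73.2, 52.3 and 57.1 CPM at 5d against 8.59, 11.3 and 11.6 CPM in the vehicle group. Pmp22, Prx and S100b had an r of 0.244 to 0.471.

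Respiratory chain genes shared that order with a smaller amplitude. All 75 tested were higher at 5d, with a median of 0.32, and 0 were DEGs. An unadjusted p under 0.05 was reached by 6 (background 11.4%), and 13 had groups apart (background 15.3%), counts near those shares. DESeq2 called 1 (background 6.76%). Against vehicle the median was -0.49 at 1d and -0.16 at 5d, or -0.63 and -0.32 without vehicle mouse 3. The ATP synthase subunits Atp5b and Atp5a1, the most abundant, had 0.16 ± 0.29 and 0.37 ± 0.30, and Atp5k and the oxidase subunit Cox7a2, which moved furthest, 0.60 ± 0.20 (edgeR's adjusted p = 0.153) and 0.59 ± 0.18 (edgeR's adjusted p = 0.109). Among genes of the motor endplate, Ache and Agrn rose, both picked after their values were seen, while Musk, described above, was a DEG that fell. Ache, the acetylcholinesterase, had 51.6, 73.3 and 62.9 CPM at 5d, 18.2, 34.8 and 28.6 CPM at 1d and 59.2, 51.9 and 28.6 CPM in the vehicle group (1.20 ± 0.25, edgeR's adjusted p = 0.0325). Agrn, the agrin that activates Musk, had 64.9, 62.1 and 77 CPM at 5d, 25.9, 36.9 and 33.6 CPM at 1d and 32.2, 35.5 and 37 CPM with vehicle (1.08 ± 0.18, edgeR's adjusted p = 0.0135).

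**Figure D5:**
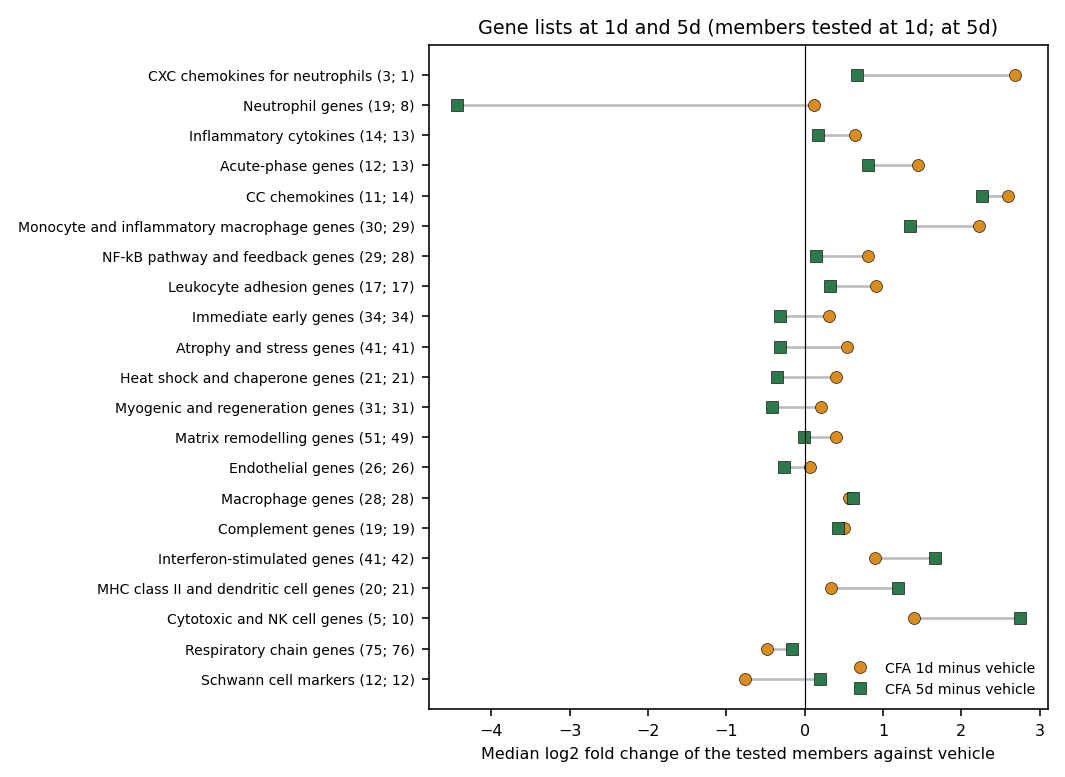
Median log2 fold change of the tested members of 21 gene lists against the vehicle group at 1d (circles) and at 5d (squares), with the number tested at each day in parentheses; both comparisons share the 3 vehicle libraries. Without vehicle mouse 3, 6 of the 21 medians at 1d and 7 at 5d shifted by more than 1.5-fold, most of all those of neutrophil genes, while the orders named next were the same. Monocyte, CC chemokine and interferon-stimulated genes stay right of zero on both days, the stress lists pass from the right to the left, and Schwann cell markers pass from -0.76 to 0.20.

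Matrix remodelling genes were lower at 5d in 41 of 52, with a median of -0.49 and 12 with groups apart. The 4 DEGs that fell were Spp1, Cyr61, Ctgf and Adamts1. Ctgf, a growth factor close to Cyr61, had -1.01 ± 0.22 (edgeR's adjusted p = 0.0414), and the protease Adamts1 had 129.8, 41.4 and 103 CPM at 1d and 28.2, 26.3 and 27 CPM at 5d (-1.75 ± 0.38, edgeR's adjusted p = 0.0403). Sparc and Dcn, the most abundant, had -0.29 ± 0.33 (edgeR's adjusted p = 0.681) and -0.78 ± 0.24 (edgeR's adjusted p = 0.119), and the collagenases Mmp8 and Mmp13 -4.21 ± 1.22 (edgeR's adjusted p = 0.103) and -3.41 ± 1.41 (edgeR's adjusted p = 0.236), both with their highest values in vehicle mouse 3. Endothelial genes were lower in 21 of 26, with a median of -0.34, 10 with groups apart (background 10.5%) and Lyve1 as the single DEG. Cdh5 and Pecam1, junction proteins of every endothelium, had -0.22 ± 0.17 and -0.35 ± 0.16, and Cldn5 had 121, 34.3 and 36.2 CPM at 1d and 18.7, 16.4 and 18.5 CPM at 5d (-1.85 ± 0.49, edgeR's adjusted p = 0.08).

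In the atrophy and stress list, where 34 of 41 members were lower at 5d, Asns, Phgdh and Psat1 were the 3 DEGs that rose. Asns, the asparagine synthetase, had 87.4, 74.4 and 104 CPM at 5d, 14, 4.82 and 9.53 CPM at 1d and 3.7, 4.15 and 23.5 CPM in the vehicle group (3.22 ± 0.38, edgeR's adjusted p = 0.0045). Phgdh, the first enzyme of serine synthesis, had 8.2, 5.72 and 9.37 CPM at 5d, 1.08, 0.522 and 1.24 CPM at 1d and 0.725, 1.41 and 3.22 CPM with vehicle (3.03 ± 0.39, edgeR's adjusted p = 0.0058). Psat1, its next enzyme, had 19.2, 19.4 and 24.7 CPM at 5d, 9.69, 4.21 and 8.99 CPM at 1d and 5.04, 5.57 and 8.66 CPM with vehicle (1.46 ± 0.32, edgeR's adjusted p = 0.0408). Their r with the salivary gland markers is 0.883, 0.84 and 0.453, in that order, the last of them under 0.5. The 3 genes that rose and kept their call without the salivary genes were Pon1, Atrnl1 and Rcn1. Pon1, a serum paraoxonase, had 15.5, 15.8 and 12.2 CPM at 5d, 3.54, 3.65 and 3.34 CPM at 1d and 7.9, 13.8 and 7.08 CPM in the vehicle group (2.04 ± 0.20, edgeR's adjusted p = 0.00271). Atrnl1 had 80.2, 85.8 and 70.1 CPM at 5d, 28.8, 33.2 and 29.3 CPM at 1d and 24.7, 28.6 and 47.1 CPM with vehicle (1.37 ± 0.15, edgeR's adjusted p = 0.00361). Rcn1, a protein of the endoplasmic reticulum, had 115, 85.2 and 115 CPM at 5d, 24, 17 and 29.7 CPM at 1d and 11.6, 14.9 and 39.2 CPM with vehicle (2.16 ± 0.25, edgeR's adjusted p = 0.00437). Pon1 lay below every vehicle mouse at 1d and overlapped them at 5d, while Atrnl1 and Rcn1 lay above every vehicle mouse at 5d. Over the 66 DEGs with an r under 0.5 the median fold change was 1.32. Of these, 46 lay above every vehicle mouse at 5d (background 13.7%) and 18 below every vehicle mouse at 1d (background 3.16%). Their median against vehicle was -0.34 at 1d and 0.99 at 5d. These genes too were chosen by their values on both days, so their place against vehicle follows in part from that choice.

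The 12 largest rises were glandular genes or genes that follow them, with fold changes of 6.51 to 8.45. They had an r of 0.621 to 0.984 with the salivary gland markers. They were Odam, Csn3, Dcpp2, Chia, Gm10790, B4galnt2, Gm17495, Azgp1, Sval2, Oit1, Apol10a and Bhlha15. Chia, the acidic chitinase, had 16768, 19947 and 8183 CPM at 5d, 159, 3.41 and 8.21 CPM at 1d and 4.5, 5.57 and 1189.5 CPM in the vehicle group (8.02 ± 1.67, edgeR's adjusted p = 0.0343). Csn3, Odam, Apol10a and Sval2 were at the floor of 3 counts in every 1d library and at least 83.9, 53.8, 35.5 and 16.5-fold higher at 5d. All 20 tested salivary gland markers were higher at 5d and 11 were DEGs, with Smr3a and Amy1 the most abundant (5.79 ± 2.05, edgeR's adjusted p = 0.172 and 5.38 ± 1.70, edgeR's adjusted p = 0.13) and Dcpp2 and Dcpp3 the furthest moved (8.12 ± 1.39, edgeR's adjusted p = 0.0162 and 6.76 ± 1.84, edgeR's adjusted p = 0.0866). Markers near zero at 1d could be tested only through their counts at 5d, and 9 markers could be tested between 1d and vehicle. The windows of Amy1, Dcpp2 and Dcpp3 are shared with other genes by 33.5%, 36.9% and 33.6%. Of 19 epithelial markers 17 were higher and 11 were DEGs, among them Epcam (4.07 ± 0.63, edgeR's adjusted p = 0.0116), Krt18 (3.48 ± 0.75, edgeR's adjusted p = 0.0387) and the splicing factor Esrp1 (4.28 ± 0.42, edgeR's adjusted p = 0.00264). All 34 epithelial markers counted, tested or not, summed to 526, 404 and 409 CPM at 5d. At 1d their sums were 92.5, 50.9 and 176 CPM. None of the 20 tested salivary gland markers at 5d overlapped the 1d group, and the glandular transcripts and the day cannot be told apart within these 6 libraries.

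No DEG was found among the genes of T cells (10 tested), B and plasma cells (6), proliferation (42), fatty acid oxidation (37), glycolysis (33), the circadian clock (22) and chemokine receptors (10), nor among the interferon-induced CXC chemokines (8) and fibroblast genes (23). Leukocyte adhesion genes (17) held Selp alone. Collagens (36) held Col7a1 alone, with an r of 0.582 with the salivary gland markers (3.59 ± 0.51, edgeR's adjusted p = 0.00834). Adipocyte (13) and tendon markers (10) held none, and of 5 cartilage markers Sox9, which glands also express, rose (1.85 ± 0.42, edgeR's adjusted p = 0.0474). At an unadjusted p under 0.05 these lists held from 0 to 6 genes in a direction, and DESeq2 called from 0 to 4. Actb, a common reference transcript, had 346, 361 and 414 CPM at 5d and 611, 319.5 and 622 CPM at 1d (-0.47 ± 0.29, edgeR's adjusted p = 0.414). Gapdh, of whose windows 78.7% are shared, was counted at 2.17, 1.14 and 2.36 CPM at 5d and 0.799, 1.44 and 0.495 CPM at 1d.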

How the data were processed

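Stranded poly(A) libraries of masseter muscle, 1 per mouse, were sequenced as single-end reads of 50 bases. The submitters' processing notes name bcl2fastq, TopHat2, HTSeq and the build mm9. The authors deposited 1 file of raw counts per gene symbol for each library, and the strand setting of the counting and the annotation are not given in the sources used here. The 5 closing lines of each file (reads not on a gene, ambiguous or not unique), 43.8% to 52.9% of the listed reads, were left out, which leaves genes with near-identical copies undercounted. Of 22609 symbols, 21627 matched a GENCODE vM1 gene by symbol and 51 by synonym, and 931 took the median exon length of 2843 bp for RPKM.

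Groups followed the sample titles. Genes with at least 10 counts in 3 of 6 libraries were fitted with the 3 mice of each day in edgeR 4.0.16 (TMM scaling, quasi-likelihood test, Benjamini-Hochberg adjustment, R 4.3.3), without covariates, and each day was fitted against vehicle in the same way. DESeq2 1.42.0, other libraries in the fit, a salivary marker covariate, other filters, a replicate block and libraries left out were alternatives. The fits without genes that follow salivary markers, and the values against vehicle without mouse 2 at 1d or vehicle mouse 3, were added after seeing the data. The fit was tested on simulated data. Levels are CPM, counts relative to the library total, and compare 1 gene across libraries, not genes with each other. A group at or under 3 counts in every library was set to that floor. The share of 50-base windows of a gene's transcripts found in other genes was computed on NCBIM37.

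The comparison, its gene lists and the genes named were chosen with earlier results of these data known. Named were the 12 largest rises and falls among DEGs with groups apart, the genes the study names for CFA, at least the 2 most abundant and 2 most changed members of each list described, Gapdh and Actb, and the further genes given in the text. Some genes that this rule names are not reported here. Figures were drawn with matplotlib 3.10.9.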

Additional observations from a re-analysis of the deposited data

How the results depend on the processing

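Against 503 higher and 89 lower, a joint fit of the 9 libraries of the CFA experiment gave 310 and 49 DEGs, a joint fit of all 31 libraries 210 and 201, the same fit with the salivary marker score as a covariate 0 and 8, and the fit without the salivary-following genes, chosen after seeing the data, 3 and 5. DESeq2 called 628 higher and 298 lower, and 124 and 216 without those genes. By the adjusted p alone, the counts of 681 and 139 became 409 and 77 with 9 libraries, 287 and 352 with 31, 0 and 8 with the covariate, 4 and 5 without the salivary-following genes, 221 and 319 with DESeq2 on the same genes, and 949 and 535 with DESeq2 on all. Size factors of DESeq2 in edgeR, the filter on low counts and the thresholds on fold and RPKM kept both DEG counts within 1.5 times, and 491 and 89 of the DEGs were shared under those size factors. Leaving out each library in turn gave 191 to 577 DEGs higher and 15 to 399 lower, and 202 to 784 and 15 to 556 by the adjusted p alone, lowest without a 5d mouse and highest without mouse 2 at 1d.

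Over the same libraries left out, the list medians ranged from -4.72 to -2.24 for neutrophil CXC chemokines, -4.41 to -2.27 for neutrophil genes, 1.02 to 2.42 for cytotoxic genes, -1.25 to -0.13 for B cell genes, -0.26 to 0.25 for complement, -0.59 to 0.47 for proliferation, -0.61 to -0.15 for pain mediators and 4.94 to 10.19 for salivary gland markers. With the covariate they were -0.47 for interferon-induced CXC chemokines, -5.33 for neutrophil, -0.037 for myogenic, 0.46 for glycolysis and -0.086 for endothelial genes, 0.55 for Schwann cell, -0.41 for salivary gland and -1.08 for epithelial markers. Epithelial markers stood at 0.50 with genes of 1 count admitted, 0.38 with 31 libraries and -0.12 without the salivary-following genes by either tool, where Schwann cell markers stood at 0.77.

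Named genes changed sign mostly where their change was small. With the covariate the log2 fold change was 0.38 for Tgfb3, -0.59 for Ccl8, 0.89 for Fn1, 0.29 for Sparc, 0.10 for Cdh5, 0.13 for Lyz2, -0.22 for Aif1, -1.76 for Arg1 and 0.15 for Irf5, and among glandular genes -0.97 for Cxcl17, -0.25 for Chia, -0.075 for Sval2, -0.37 for Bhlha15, -0.62 for Krt18, -0.00012 for Epcam, -0.50 for Esrp1, -1.58 for Smr3a, -0.74 for Amy1 and -0.85 for Dcpp3. Ccl8 was -0.015 with DESeq2, -0.016 with its size factors and -0.041 with 31 libraries, and Tgfb3 0.00025 without the salivary-following genes. With single libraries left out, the values ranged from -0.18 to 0.064 for Tgfb3, -0.44 to 0.70 for Ccl8, -1.24 to 0.36 for Fn1, -0.51 to 0.30 for Lpl, -0.65 to 0.095 for Lyz2, -0.43 to 0.60 for Aif1, -0.33 to 0.95 for Arg1, -0.91 to 0.15 for Tlr13, -0.40 to 0.47 for Tlr1, -0.55 to 0.15 for Irf5 and -1.80 to 1.06 for Clec4n. The cause of these shifts was not tested.

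The mouse numbers label different animals on each day. Same-numbered mice correlated at -0.030, 0.32 and 0.20 in their deviations from the group means, and differently numbered mice at -0.35 to 0.15. Whether the numbers mark a shared batch was not tested. With the number as a replicate block, 505 DEGs were higher and 86 lower, of which 458 and 66 were shared, 11 of the 84 called genes named lost their call, the median of salivary gland markers was 7.30, and Lpl and Clec4n stood at 0.054 and -0.058.

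Each day has 3 mice, of which 1 stood near the vehicle level at 1d, and glandular transcripts were high in all mice at 5d. Genes near 10 counts carry a large counting error, and no value here separates a loss of cells from a loss of RNA per cell.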
